A study of Vitis vinifera with 6 samples.

Results

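A set of 84 grapevine genes was read in embryogenic callus (EC) but had almost no reads in young leaf. A gene was taken into the set when it had at most 3 raw counts in each of the 3 leaf libraries and at least 100 raw counts in each of the 3 EC libraries. These 84 are among 31843 genes in the count table, of which 21336 could be tested. Another 2 genes met both limits and were left out because their identifiers carry the prefixes VIT_216s0100g or VIT_210s0042g. The members were thus selected on the counts of both tissues, so their difference between leaf and EC is given as a description, with no test. The tests below concern genes beside the members, which the selection did not use.

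The samples were ribosome-depleted RNA of Vitis vinifera cultivar Chardonnay, with 3 libraries from proliferating EC and 3 from young leaf tissue. The EC was raised from anthers of vineyard vines and kept in the dark on solid medium, and each EC sample pooled several culture dishes. Each leaf sample pooled several small leaves of the same vines, so that no library stands for a single plant, and light, organ and culture differed together between the tissues. EC is a mass of dedifferentiated cells that can be induced to form somatic embryos, whereas a leaf is terminally differentiated, so genes for early development, cell division and the response to culture can be on in one and off in the other. Genes that lie side by side in plant genomes are often tandem copies of one ancestor, and neighbouring genes can also share open or closed chromatin. In bulk RNA, a gene that is on in few cells and a gene that is weakly on in all of them cannot be told apart.

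The identifiers of this annotation give the place of a gene. The 2 digits after VIT_2 are the chromosome, with 00 for sequence that is not placed on one, the 4 digits after s are a scaffold, and the digits after g number the genes along it. The number of identifiers that matched a name in the RefSeq gene table used here was 0, so genes are given by identifier without a function, and the tissue labels were not checked against named marker genes. No sequence is shown for the same reason. The libraries were stranded, but the use of strand in counting is not given in the sources used here, so reads of a gene and of an overlapping antisense gene cannot be told apart, and near-identical tandem copies may share reads.

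Between 22280342 and 24209752 reads were counted in each EC library, and 23642329, 21914215 and 13123072 in leaf replicates 1, 2 and 3. Leaf replicate 3 had the fewest counted reads and the lowest TMM scaling factor (trimmed mean of M-values), 0.658, against 0.961 to 1.19 in the others. It was not sequenced less, since the paper lists a number of read pairs for it within the range of the other libraries. The paper also gives it the lowest shares of reads mapped and properly paired on the reference used for counting. Levels are given as RPM, the reads of a gene per 1000000 reads counted over genes and TE families together. They grow with the length of a transcript as well as with its abundance, and lengths were not used here, so a higher RPM of one gene than of another says which took more reads. A count of 3 was worth 0.124 to 0.137 RPM in all libraries except leaf replicate 3, where it was worth 0.229 RPM.

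Silence in leaf was common and strong reads in EC on top of it were rare. Of the 8152 genes with at most 3 counts in each leaf library, 6960 also had at most 3 in each EC library, 3835 of them with no count in any library. Another 1106 had more than 3 counts in at least one EC library without reaching 100 in all of them. The 86 genes that met both limits, before the prefixes were left out, were 1.05% of the leaf-silent genes. They were 0.592% of the 14523 genes with at least 100 counts in each EC library. The opposite pattern, at least 100 counts in each leaf library and at most 3 in each EC library, was met by 296 genes.

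Together the 84 members held 29847, 40109 and 36546 counts in EC replicates 1, 2 and 3, or 1322, 1800 and 1510 RPM. In leaf they held 66, 64 and 90 counts in replicates 1, 2 and 3. In RPM this was 2.79, 2.92 and 6.86, so the leaf trace was highest in leaf replicate 3. The mean EC level of a member ranged from 4.72 to 156 RPM with a median of 10.9. There were 38 members under 10 RPM, 25 between 10 and 20, 17 between 20 and 50 and 4 above 50. The 5 members with the most reads held 29.4% to 35.1% of the members' counts in an EC library.

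**Figure D1:**
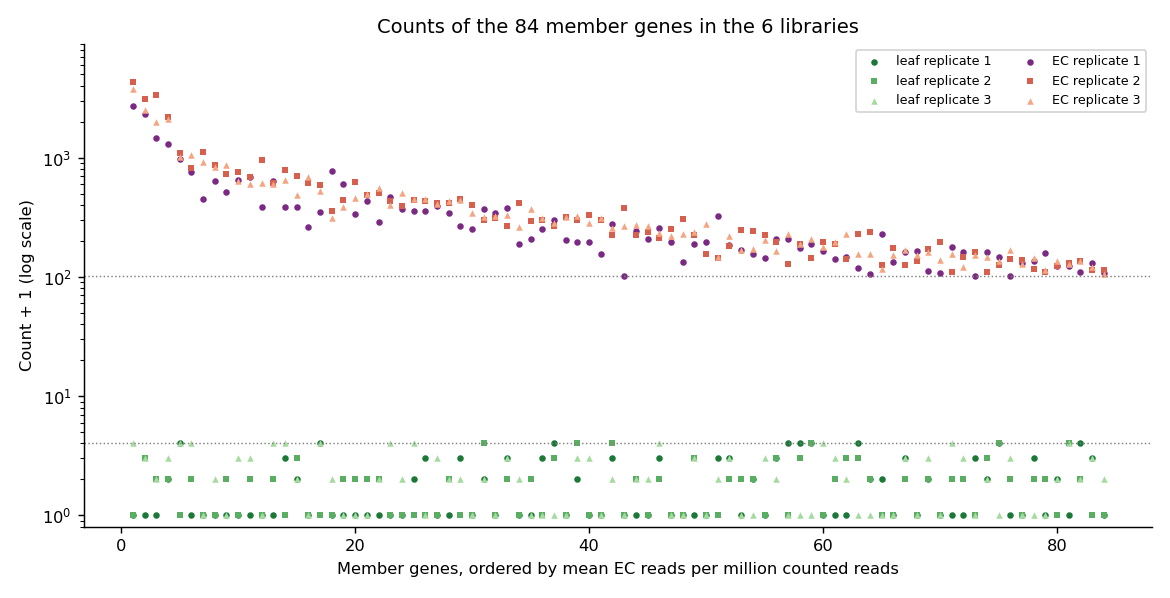
Count plus 1, on a log axis, of each of the 84 members in each of the 6 libraries, with members ordered by their mean EC level. The dotted lines mark the limits of 3 counts in leaf and 100 in EC, and the EC points reach 4331 counts while no leaf point passes 3, as the selection required.

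Of the 252 leaf values of the members, 126 were 0, 59 were 1, 40 were 2 and 27 were 3. No count in any leaf library was found for 15 members, 40 had 1 to 3 counts over the leaf libraries together and 29 had 4 or more. Over pooled libraries, with genes at 0 in leaf set to a floor of 3 counts over the group, the EC to leaf ratio of RPM ranged from 53.7 to 3047 with a median of 239. Over TMM-scaled library sizes the range was 41.0 to 2328 and the median 183. The 15 members at 0 enter as lower bounds, with a median of 211 in RPM, and the 69 with a leaf count had a median of 265. Leaf totals of 1 or 2 were not set to the floor. A member at 0 can thus get a smaller ratio than a member with 1 leaf count.

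The 4 members above 50 RPM stood apart from the rest. VIT_218s0089g00950 had 2689, 4331 and 3738 counts in EC replicates 1, 2 and 3, against 0, 0 and 3 in the leaf libraries in the same order. This was 156 ± 37.6 RPM in EC (SD, n = 3), and its pooled ratio was 3047 (exact 95% interval 1042 to 14780, counting error only, as for all such intervals below). All of its leaf reads were in leaf replicate 3.

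VIT_215s0046g03050 had 0, 2 and 2 leaf counts and 2345, 3119 and 2532 EC counts, or 116 ± 20.6 RPM in EC (SD, n = 3). VIT_211s0118g00170 had 0, 1 and 1 leaf counts and 1459, 3367 and 1979 EC counts. Its EC level of 99.2 ± 45.8 RPM (SD, n = 3) came with a ratio of 2891 (800 to 23880), and EC replicate 2 was 2.34 times as high as EC replicate 1. VIT_219s0027g01860 had 1, 1 and 2 leaf counts and 1305, 2181 and 2123 EC counts, or 81.1 ± 20.8 RPM in EC (SD, n = 3). In all 4 of these genes EC replicate 1 was the lowest and EC replicate 2 the highest.

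The next 6 by EC level lay between 29.7 and 44.7 RPM. VIT_203s0091g01110 was close to even across EC, with 977, 1096 and 1007 counts, and had 3, 0 and 3 in leaf. VIT_211s0016g04880 had 762, 825 and 1058 counts in EC and 0, 1 and 3 in leaf. VIT_205s0020g02120 is described with the genes at 0 in leaf. A level of 33.9 ± 5.42 RPM in EC (SD, n = 3) was found for VIT_212s0034g01850, from 640, 873 and 830 counts, against a single count in leaf replicate 3. VIT_218s0001g14740 had 511, 726 and 874 EC counts and a single count in leaf replicate 2. VIT_206s0080g00990 had 645, 765 and 638 EC counts and 2 counts in leaf replicate 3. With a total of 1 leaf count the ratio is loosely fixed, and that of VIT_212s0034g01850 was 1991 with an interval of 357 to 78660.

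For the 15 members without a leaf count the ratio is a lower bound, with 0 counts over the leaf libraries together set to a floor of 3, or 0.0511 RPM. Bounds here and below are in RPM at that floor. Over TMM-scaled library sizes the bound of VIT_205s0020g02120 was 536-fold. VIT_205s0020g02120 had 451, 1106 and 918 EC counts and was at least 701-fold higher in EC. VIT_201s0011g05130 had 386, 950 and 613 and was at least 552-fold higher. VIT_201s0011g00190, on the same scaffold, had 261, 617 and 692 and was at least 445-fold higher. All 3 of these were lowest in EC replicate 1, where their RPM was exceeded 2.39-fold to 2.49-fold in EC replicate 2. VIT_212s0035g00550 had 249, 401 and 343 EC counts and was at least 281-fold higher. VIT_202s0025g04950 was even across EC, with 343, 308 and 324 counts, and was at least 276-fold higher. The remaining 10 had bounds between 112-fold and 237-fold.

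The limits cut through a continuous range. At the EC limit, VIT_200s0480g00010 with 100, 141 and 166 EC counts, VIT_218s0001g01840 with 100, 379 and 266, and VIT_207s0031g01610 with 101, 161 and 152 were just inside. VIT_215s0045g00150 with 120, 112 and 99, VIT_202s0236g00070 with 98, 253 and 178, and VIT_202s0154g00150 with 111, 129 and 97 were just outside, and each of these had at most 2 counts in a leaf library. At the leaf limit, 22 members had a highest leaf count of 3, and 28 genes with at least 100 counts in each EC library missed the set with a highest leaf count of 4. The members with a count of 3 included VIT_218s0089g00950, VIT_203s0091g01110 and VIT_211s0016g04880, described above. Just outside, VIT_201s0011g06360 had 1155, 1327 and 1594 EC counts with 2, 0 and 4 in leaf. VIT_214s0066g01140 had 1106, 1315 and 1365 EC counts with 1, 3 and 4, and VIT_206s0004g04485 had 1291, 1175 and 1157 with 0, 0 and 4. In all 3 of these the count of 4 was in leaf replicate 3.

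Leaf replicate 3 set the size of the group more than any other library. Without it the same limits gave 149 genes, against 94 and 102 without leaf replicates 1 and 2 and 86 to 99 without one of the EC libraries. The 65 genes that then entered had 4 to 170 counts in leaf replicate 3, with a median of 8. Of these, 36 had 4 to 10 counts there, 14 had 11 to 30 and 15 had more than 30. In RPM their level in leaf replicate 3 was 0.298% to 71.6% of their mean EC level, with a median of 1.67%. With both limits scaled to the counted reads of each library over their median, 49 genes met them. This lowers the leaf limit for leaf replicates 2 and 3, most for leaf replicate 3. What sets leaf replicate 3 apart was not tested.

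The EC libraries agreed less well for the members than for other genes of like EC level. The coefficient of variation (CV) over the 3 EC libraries had a median of 17.6% in the members, with a range of 1.22% to 58.2%. In the 13271 other genes with at least 100 counts in each EC library and a mean EC level in the same range, the median was 7.22%. Counting error alone would give a median CV of 6.32% in the members and 3.89% in the others. The members' median was higher in each band of EC level, at 16.6% against 10.3% under 10 RPM, 12.04% against 8.57% between 10 and 20, 26.2% against 6.67% between 20 and 50, and 24.9% against 5.77% above 50. A CV over 30% was found in 17 members (20.2%) and in 426 of the other genes (3.21%). These are descriptions of 3 libraries, in which genes are not independent of each other. Over 2 EC libraries, the median without EC replicate 1 was 11.1% in the members and 4.93% in the other genes. It was 14.1% and 6.16% without EC replicate 2, and 20.9% and 6.78% without EC replicate 3. A CV over 2 libraries is not on the same scale as a CV over 3.

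Where EC replicates 1 and 2 differed by 1.5-fold or more, EC replicate 2 was more often the higher, in members and other genes. Such a ratio does not tell a low EC replicate 1 from a high EC replicate 2. EC replicate 1 was the lowest EC library in 48 members (57.1%, against 48.0% of the other genes), and EC replicate 2 was the highest in 47 (56.0%, against 34.9%). The level in EC replicate 2 was at least 1.5 times that in EC replicate 1 in 28 members (33.3%, against 3.62%) and at most 1/1.5 of it in 5 (5.95%, against 1.51%). The median ratio of EC replicate 2 to EC replicate 1 was 1.21 in the members and 1.03 in the other genes. With TMM-scaled sizes it was 1.17 and 0.996, with EC replicate 2 the highest in 46 members (54.8%, against 31.5% of the other genes).

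**Figure D2:**
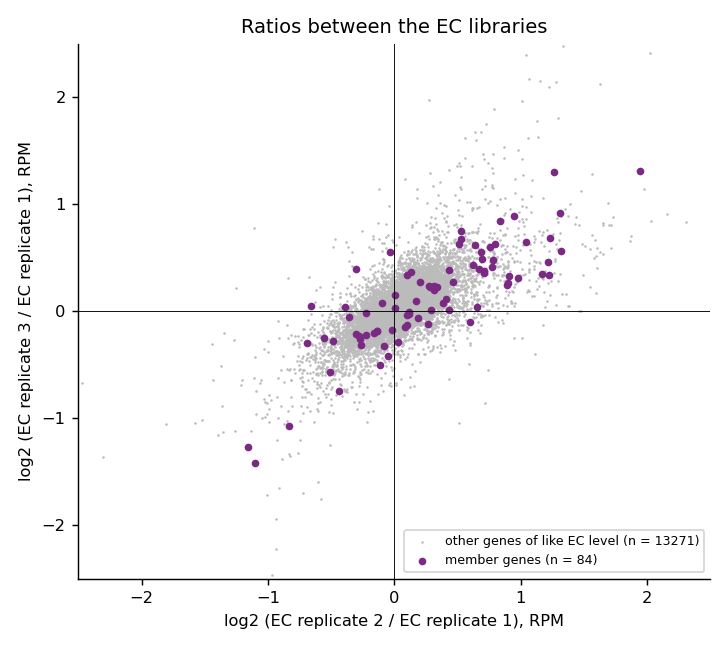
Log2 ratio of EC replicate 3 to EC replicate 1 (y axis) against that of EC replicate 2 to EC replicate 1 (x axis), in RPM, for the 84 members (purple) and 13271 other genes of like EC level (grey); 10 of the latter lie outside the axis limits. The members spread further from the origin than most other genes, mainly toward the upper right, where EC replicate 1 was the lowest library.

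The widest spread was in VIT_218s0001g01840, with 100, 379 and 266 counts, or 4.43, 17.0 and 10.99 RPM in EC replicates 1, 2 and 3. A ratio of EC replicate 2 to EC replicate 1 of at least 2 was found in 9 members, VIT_211s0118g00170, VIT_205s0020g02120, VIT_201s0011g05130, VIT_210s0003g00590, VIT_201s0011g00190, VIT_216s0098g00820, VIT_203s0038g02880 and VIT_207s0005g01745 besides VIT_218s0001g01840. In all 9 EC replicate 3 was also above EC replicate 1, by 1.26-fold to 2.48-fold. These 9 were picked on a ratio to EC replicate 1, which favours a higher EC replicate 3 as well. The opposite order was found in VIT_216s0013g00740, with 774, 356 and 311 counts (34.3, 16.0 and 12.8 RPM), and in VIT_212s0059g00430, with 325, 144 and 145 counts (14.4, 6.46 and 5.99 RPM). In these, EC replicate 1 was more than 2 times as high as either of the others. The most even members were VIT_212s0059g02680 with 123, 122 and 135 counts (CV 1.22%), VIT_212s0059g00690 with 174, 186 and 186 (CV 4.76%) and VIT_200s0188g00070 with 122, 129 and 128 (CV 4.79%).

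The members were scattered over the genome. They lay on 18 of the 19 chromosomes and on unplaced sequence, spread over 56 scaffold numbers, 38 of which held a single member. The most on one scaffold were 6, on scaffold 0001 of chromosome 18, which carries 1478 gene identifiers. The most on a chromosome were 7, on each of chromosomes 12, 18 and 19, which carry 1592, 2383 and 1443 gene identifiers. Chromosome 14, with 1948 identifiers, held 2 members. Chromosome 4 held 0 members among 1586 identifiers, although 785 of these had at least 100 counts in each EC library. Numbers this small carry a wide counting error, and no test of the spread was run.

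**Figure D3:**
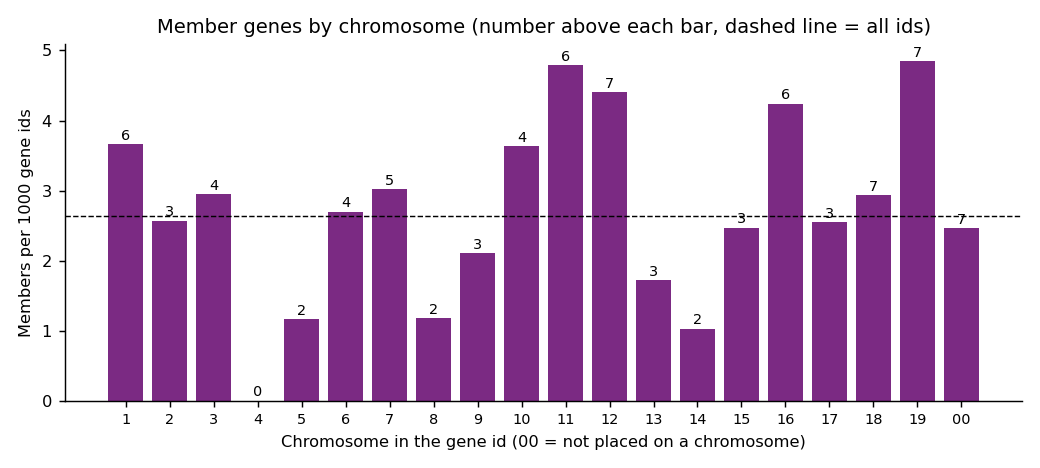
Members per 1000 gene identifiers (bars, y axis from 0) on each chromosome given by the identifier, with 00 for unplaced sequence, the number of members above each bar and the value over all identifiers, 2.64, as a dashed line. Chromosome 4 has 0 members and chromosome 19 the highest value, 4.85.

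Some members were direct neighbours of each other. A neighbour is here the next identifier on either side with the same chromosome and scaffold number. There were 2 such pairs, so 4 members (4.76%) had another member beside them, and 8 (9.52%) had one within 5 identifiers. Of all 31843 gene identifiers, 0.518% had a member beside them and 2.46% had one within 5 identifiers. In the pair VIT_202s0025g04940 and VIT_202s0025g04950, the first had 163, 197 and 176 EC counts and 0, 0 and 3 leaf counts, and the second 343, 308 and 324 and no leaf count. In the pair VIT_212s0059g00420 and VIT_212s0059g00430, the first had 228, 126 and 116 EC counts with 1, 0 and 0 in leaf, and the second 325, 144 and 145 with 2, 0 and 1. Both genes of this second pair were highest in EC replicate 1, at 10.1 and 14.4 RPM against 4.79 to 6.46 in the other EC libraries. EC replicate 1 was the highest EC library in 22 of the members (26.2%), near the 28.7% of other genes of like EC level. Shared reads between the genes of a pair cannot be told apart from separate transcripts in these counts. Within 5 identifiers lay also VIT_203s0097g00290 and VIT_203s0097g00340, with 298, 268 and 281 and 634, 616 and 601 EC counts, and VIT_200s0188g00040 and VIT_200s0188g00070, which belong to a longer run described below.

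The genes beside the members were more often higher in EC than genes in general. Of the 161 neighbours that were not members, 110 passed the filter on low counts and were tested. Of these, 39 (35.5%) were higher in EC and 21 (19.1%) lower in EC, at an adjusted p under 0.05 and at least 2-fold (edgeR quasi-likelihood test, Benjamini-Hochberg over genes and TE families). Over all genes tested, 17.3% were higher and 25.3% lower by the same call. The median log2 fold change was 0.28 in the tested neighbours and −0.05 in all genes tested. In 63 neighbours (57.3%) each EC library lay above each leaf library in RPM, against 48.3% of all genes tested, and in 24 (21.8%) below, against 24.6%. RPM leaves out the TMM factors, which were 0.658 to 0.974 in leaf and 1.15 to 1.19 in EC. It therefore places more genes higher in EC than the calls do. These shares are a description, with no test of the neighbours as a set.

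The share higher in EC was highest next to a member. It was 35.5% at 1 identifier from a member, 25.5% at 2, 20.4% at 3, 16.5% at 4 and 23.2% at 5, while the share lower in EC was 19.1%, 22.7%, 25%, 22.9% and 28.6%. The share rested partly on neighbours with few leaf reads. When at least 10 counts were required in each library, which removes such genes by construction, 13 of 73 neighbours (17.8%) were higher in EC, against 13.9% of all genes that passed this limit. With a choice made after the data had been seen, neighbours with more than 3 counts in at least one leaf library, it was 28 of 99 (28.3%), against 15.7% of all genes with the same limit.

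**Figure D4:**
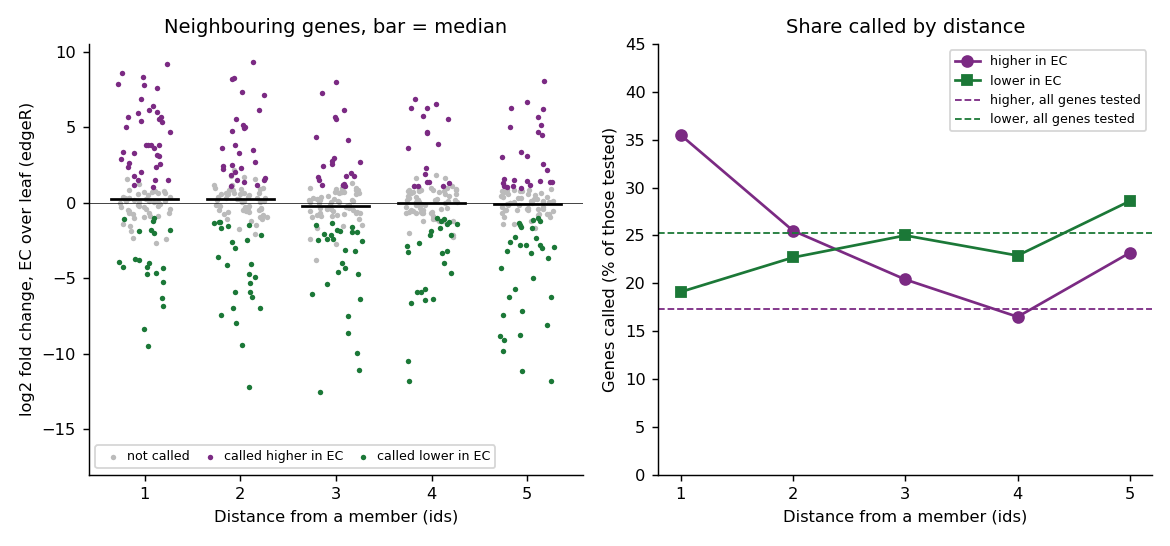
Left, log2 fold change of EC over leaf (edgeR) of genes 1 to 5 identifiers away from a member, with a bar at each median; right, the share of tested genes called higher (purple circles) or lower in EC (green squares) at each distance, with dashed lines at the shares over all genes, 17.3% and 25.3%. At 1 identifier the share higher in EC is 35.5%, and from 3 to 5 identifiers it is 16.5% to 23.2%.

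Of the 84 members, 34 had a neighbour called higher in EC, 5 of them on both sides, 20 had a neighbour called lower, and 33 had neither. The 51 neighbours that were not tested count here as not called, so a member with neither can still adjoin a gene that differs. The share of all genes with called neighbours was not counted, so these numbers are not read as particular to the members. The 4 called neighbours with the largest fitted log2 fold change are given first, although for genes at 0 in leaf that value depends on the fit and is no measure of size. VIT_212s0059g02690, beside VIT_212s0059g02680, had no leaf count and 39, 71 and 161 EC counts, so its EC level was higher by at least 76.8-fold (edgeR adjusted p = 0.00912). VIT_216s0013g00750, beside VIT_216s0013g00740, had 0, 0 and 7 leaf counts and 1311, 1896 and 1984 EC counts, a ratio of 630 (306 to 1568; log2 fold change 8.58, standard error 1.30, adjusted p = 0.00362, edgeR). In EC this gene was lowest in replicate 1, whereas the member beside it was highest there. VIT_205s0102g00970, beside VIT_205s0102g00975, had no leaf count and 24, 57 and 65 EC counts, higher in EC by at least 41.4-fold (edgeR adjusted p = 0.0066). VIT_202s0033g00750, beside VIT_202s0033g00740, had 1, 1 and 4 leaf counts and 863, 901 and 763 EC counts, with a log2 fold change of 7.86 (standard error 0.79, adjusted p = 0.00107, edgeR). Its pooled ratio was 358 (164 to 976). A ratio of like size, 354 (243 to 538), was found for VIT_200s1216g00020, beside VIT_200s1216g00010, with 2, 5 and 20 leaf counts and 3839, 3903 and 3509 EC counts (log2 fold change 7.62, standard error 1.19, adjusted p = 0.00397, edgeR).

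The opposite was found beside other members. VIT_211s0037g01350 had 109, 88 and 27 counts in leaf and none in EC, lower there by at least 87.9-fold (edgeR adjusted p = 0.00129). Its neighbour, the member VIT_211s0037g01345, had none in leaf and 201, 319 and 316 in EC, so 2 adjacent identifiers were read in different tissues. VIT_218s0089g00970, beside the member with the most reads, VIT_218s0089g00950, had 32, 26 and 25 leaf counts and none in EC, lower there by at least 32.6-fold (edgeR adjusted p = 0.00498). VIT_210s0003g00600, beside VIT_210s0003g00590, fell from 209, 274 and 42 counts in leaf to 1, 3 and 2 in EC, with a log2 fold change of −6.83 (standard error 0.60, adjusted p = 7.62e-04, edgeR). VIT_209s0002g04130 fell from 3832, 2921 and 1341 counts to 52, 43 and 62, with a log2 fold change of −6.32 (standard error 0.20, adjusted p = 1.65e-04, edgeR). The gene on the other side of the same member VIT_209s0002g04140, VIT_209s0002g04150, was higher in EC, with 60, 56 and 35 counts in leaf and 383, 301 and 321 in EC (log2 fold change 2.01, standard error 0.27, adjusted p = 0.00234, edgeR). A called rise on one side and a called fall on the other was found for 3 members.

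Members and genes called higher in EC formed 11 runs of 3 or more consecutive identifiers. These runs were put together from the calls, after the values had been seen, and are described without a test of the run. Of all genes tested, 17.3% were called higher in EC, and runs without a member were not counted. The number of runs is therefore not read as particular to the members. The longest held 10 identifiers, from VIT_200s0188g00040 to VIT_200s0188g00110 on unplaced sequence, of which 2 are members. VIT_200s0188g00040 had 184, 182 and 219 EC counts and 2, 1 and 2 leaf counts, and VIT_200s0188g00070 had 122, 129 and 128 and 0, 3 and 3. The 8 other genes had 36 to 144 counts in each EC library and 0 to 10 in each leaf library. Their log2 fold changes lay between 3.08 in VIT_200s0188g00110 (standard error 0.29, adjusted p = 8.38e-04, edgeR) and 6.14 in VIT_200s0188g00050 (standard error 0.72, adjusted p = 0.00163, edgeR). No gene of the run was near 0 in EC. Some other runs rest on calls near the limit. The run of VIT_203s0038g02880 needs VIT_203s0038g02900 (adjusted p = 0.047, edgeR). Its call was missing in 11 of 14 alternatives, counting the limit of 10 counts in each library, where it was not tested. The run around VIT_207s0005g01745 needs VIT_207s0005g01750 (adjusted p = 0.0481, edgeR), whose call was lost in 6.

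**Figure D5:**
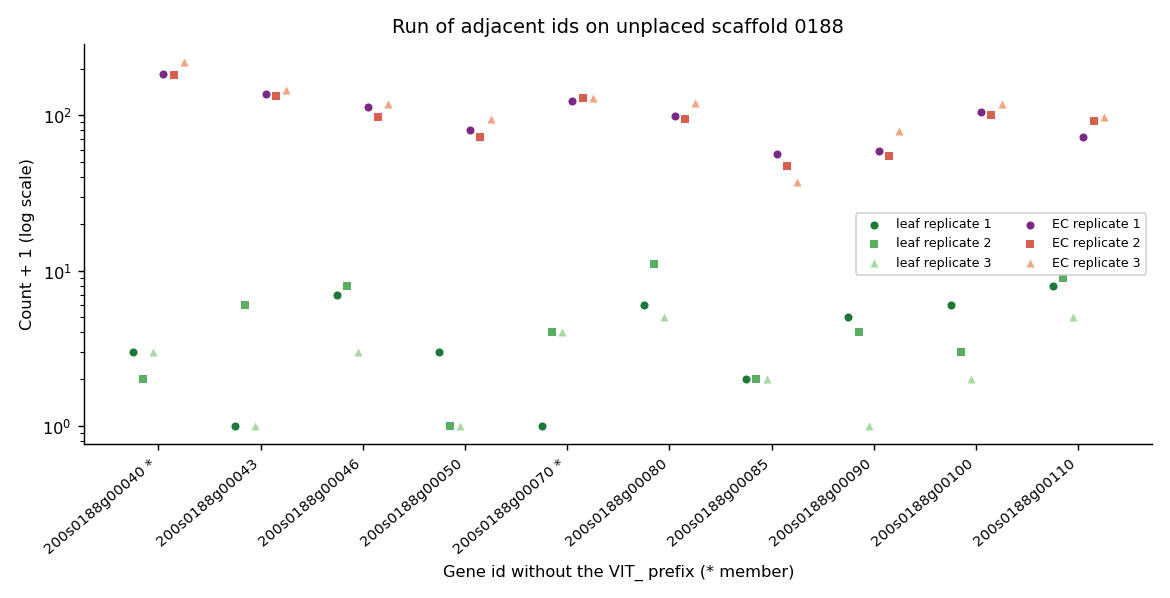
Count plus 1, on a log axis, in each of the 6 libraries for the 10 consecutive identifiers of the longest run, with an asterisk at its 2 members. The EC counts lie between 36 and 219 and the leaf counts between 0 and 10 in all 10 genes.

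Some runs held a gene with far more reads than the member. Next to VIT_201s0011g05130 lay VIT_201s0011g05140, with 78, 69 and 93 EC counts and 0, 0 and 3 in leaf, and then VIT_201s0011g05150, with 10585, 19009 and 14537 EC counts and 3, 4 and 24 in leaf. VIT_201s0011g05150 missed the set by its leaf counts (log2 fold change 9.29, standard error 1.42, adjusted p = 0.00363, edgeR). Like the member VIT_201s0011g05130 it was lowest in EC replicate 1 and highest in EC replicate 2. The run of VIT_201s0026g02370, with 382, 698 and 486 EC counts, continued with VIT_201s0026g02390 at 415, 629 and 430 and VIT_201s0026g02400 at 1561, 2152 and 1625. EC replicate 2 was highest in all 3 of these genes. Beside the pair VIT_202s0025g04940 and VIT_202s0025g04950, VIT_202s0025g04960 had 3535, 3504 and 4382 EC counts and 412, 429 and 40 in leaf, so a gene well read in leaf adjoined a pair that was not (log2 fold change 3.28, standard error 0.56, adjusted p = 0.00541, edgeR). The call of VIT_201s0011g05140 (log2 fold change 5.38, standard error 1.12, adjusted p = 0.0104, edgeR) was lost without EC replicate 3, where it had a log2 fold change of 5.23 and an adjusted p of 0.051.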

How the data were processed

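The authors removed tRNA and rRNA reads, mapped the rest to the PN40024 reference with HISAT2 allowing multiple positions, and counted genes of the V2.1 annotation and TE families together with TEtranscripts. The deposited values are raw counts per gene and TE family, without normalisation, in 6 columns, with 0 other columns of values per sample. Whether counting used strand is not given in the sources used here. Columns were matched to samples by title.

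Counts of 31843 genes and 232 TE families were tested in 1 model with edgeR 4.0.16 (R 4.3.3). The steps were filterByExpr by tissue (minimum count 10, minimum total 15), TMM, and robust glmQLFit with glmQLFTest. Calls needed a Benjamini-Hochberg adjusted p under 0.05 over 21550 features and at least 2-fold, after the paper's limits. The code was tested on simulated data. Standard errors were taken as |log2 fold change|/√F. Exact (Clopper-Pearson) 95% intervals came from scipy 1.17.1 and cover counting error only. Since the labels do not say that replicates came from separate cultures or plants, p-values measure the spread between these samples.

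The members, gene lists and rules were chosen with earlier results of these data known. Named members were the 10 with the highest mean EC RPM, the 5 highest at 0 in leaf, the 3 with the largest and the 3 with the smallest CV, members of adjacent pairs, and the 3 genes on each side of each limit. Named neighbours were the 4 with the largest and the 4 with the smallest log2 fold change among those called. All others named were chosen after their values were seen. Alternatives were DESeq2 1.42.0, its size factors, library sizes alone, limma-voom (limma 3.58.1), other filters, limits and neighbour definitions, a replicate block, and each library left out. Figures were drawn with matplotlib 3.10.9.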

Additional observations from a re-analysis of the deposited data

How the results depend on the processing

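The number of members followed the limits. It was 15 with 0 counts in each leaf library, 215 with up to 10, 145 with at least 50 counts in each EC library, 41 with at least 200, 49 with limits scaled to library size, and 86 to 149 with one library left out. Members with a member beside them were 22 with up to 10 leaf counts and 18 with at least 50 EC counts. The median CV was 11.1% to 20.9% with one EC library left out. Neighbours higher in EC were 13 of 73 (17.8%, against 13.9% of all genes tested) with at least 10 counts in each library. With one library left out they were 32 to 45 (27.8% to 38.5%, against 12.7% to 21.5%). Over the 2 nearest identifiers on each side, 66 of 218 were higher (30.3%, against 17.3%) and 46 lower (21.1%, against 25.3%). With the replicate number as a block, 35 of 110 neighbours were higher (31.8%, against 14.7% of all genes tested) and 17 lower (15.5%, against 21.9%). Deviations of same-numbered leaf and EC libraries had correlations of −0.0125, 0.0965 and 0.0961 across genes, and leaf replicate 1 correlated better with EC replicate 2 (0.102), so the numbers were not taken to pair the samples. In the other alternatives these counts stayed within 1.5 times, but the shares over all genes could move. With library sizes alone, 46 neighbours (41.8%) were higher in EC, against 26.7% of all genes tested, and 18 (16.4%) lower, against 20.5%. Of 71 neighbours and run genes called, 55 kept their call in each of 14 alternatives that tested them. These alternatives included the same fit without the fold limit, where no call can be lost. The low number of reads counted in leaf replicate 3, 13123072, limits how firmly a count of 0 there can be read as absence.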

Other observations

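Identifiers whose gene number is not a multiple of 10 lie between the regular steps of the numbering. There were 9 of these among the 84 members (10.7%), against 6.23% of all gene identifiers, 1.31% of those with at least 100 counts in each EC library and 14.3% of those with at most 3 in each leaf library. The members of this kind with the most EC reads were VIT_217s0000g00905, with 434, 482 and 497 counts in EC and 0, 1 and 0 in leaf, and VIT_206s0004g04855, with 353, 434 and 447 in EC and 2, 0 and 0 in leaf. The latter lay beside VIT_206s0004g04850, which had 1849, 2027 and 2182 counts in EC and 239, 217 and 51 in leaf (log2 fold change 3.06, standard error 0.26, adjusted p = 6.92e-04, edgeR). VIT_217s0000g00905 lay between VIT_217s0000g00900, which was lower in EC (log2 fold change −1.83, standard error 0.31, adjusted p = 0.00521, edgeR), and VIT_217s0000g00910, which was higher (log2 fold change 2.34, standard error 0.16, adjusted p = 3.92e-04, edgeR). Among the 296 genes on in leaf and silent in EC, 2 identifiers were of this kind (0.676%), and 28 genes (9.46%) had another gene of that group beside them, where 1.82% of all gene identifiers had such a gene beside them. For the 84 members these shares were 4.76% and 0.518%, and since the groups differ in size the shares are given without a comparison.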
